A study of Mus musculus with 4 samples.

Results

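Dapl1-high Mafa-positive beta cells are the beta cells of mouse islets in which Dapl1 reached 400 counts per 1000000 (CPM) of the cell's own unique molecular identifiers (UMIs) and at least 1 Mafa UMI was counted. They were 597 of 8088 beta cells in 4 droplet single-cell RNA libraries, which kept 12752 of 22218 barcodes after quality filters. A beta cell was a cell with Ins1 and Ins2 at 5% or more of its UMIs and with Gcg, Sst and Ppy each under 1%. The comparison was with the 7375 beta cells under 400 CPM Dapl1 of the same libraries. A further 116 cells reached 400 CPM Dapl1 without a Mafa UMI and formed a class of their own.

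The study asked how a missense variant of Pax4, a repressor needed to form beta cells in the embryo, alters islet cells under dietary stress. The libraries came from male C57BL6/N littermates, either wild type (WT) or homozygous for a knock-in of the variant at the endogenous Pax4 allele (HH). WT SCD and HH SCD mice were 12 weeks old on a standard chow diet (SCD), and WT HFD and HH HFD mice were 16 weeks old and had been on a high-fat diet (HFD) for the last 4 of them. Values for the 4 libraries are given in the order WT SCD, HH SCD, WT HFD, HH HFD unless named otherwise. The islets of several mice were pooled into 1 library per group, so animals within a library cannot be told apart, diet cannot be told apart from age, and no difference between genotypes has a replicate check. The knock-in is present in all cells of the animal and from conception, and Pax4 itself had 0 UMIs in all 4 libraries, which in the members allows up to 5.68, 3.102, 2.29 and 0.197 CPM (3 counts per library).

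Mafa is a transcription factor that switches on insulin and secretion genes as beta cells mature after birth, and it is known to decline in stressed beta cells. Dapl1 encodes a small protein known from epithelial differentiation and from egg cells, where it binds dormant ribosomes. Rgs2, Spp1 and Pappa2 were given with Dapl1 as markers of these cells. Rgs2 encodes a regulator that shuts off G-protein signalling, Spp1 the secreted phosphoprotein osteopontin and Pappa2 a protease that frees insulin-like growth factors from their binding proteins. In GRCm38, Dapl1 lies on chromosome 2 at 59484653 to 59505020 on the plus strand, and Mafa lies on chromosome 15 at 75745490 to 75748228 on the minus strand.

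The libraries held 68011082 to 104810105 UMIs, and the filters kept between 38.3% of barcodes (WT HFD) and 67.8% (HH SCD). Any 2 libraries shared 6 to 11 barcode sequences. In 4 of these pairs of equal barcodes 1 of the cells was a member, and in 0 pairs both were. Members were deeper than the beta cells under 400 CPM Dapl1 in each library, with median UMIs of 31080.5 against 26380, 30241 against 26131, 33081 against 29733 and 29128.5 against 22846. For this reason results are also given against beta cells under 400 CPM Dapl1 that were matched to the members on UMIs. The median share of mitochondrial UMIs was lower in members, at 4.60% against 5.11%, 3.96% against 5.01%, 4.08% against 4.91% and 3.67% against 4.10%.

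Most members came from HH HFD. They were 16 of 2056 beta cells in WT SCD (0.778%, 95% exact Clopper-Pearson interval 0.445 to 1.26), 32 of 1990 in HH SCD (1.61%, 1.10 to 2.26), 39 of 1150 in WT HFD (3.39%, 2.42 to 4.61) and 510 of 2892 in HH HFD (17.6%, 16.3 to 19.1). From lowest to highest share the libraries kept this order, with overlapping intervals for the SCD pair and for no other neighbours. HH minus WT was 0.830 percentage points on SCD (interval 0.131 to 1.56) and 14.2 points on HFD (12.4 to 16.0). These intervals, like all intervals given here, cover counting error only and not the spread between animals.

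The share depended on the limit set for Dapl1, and it changed when cells were thinned. With cells thinned to 3000 UMIs, members were 2.46% of beta cells in HH SCD and 5.95% in HH HFD, and HH minus WT on HFD was 2.99 points (interval 1.57 to 4.28). In a thinned cell the Dapl1 limit is rounded up to whole UMIs, and a Mafa UMI is more easily missed. Thinning thus also changed the rule, and the part of depth alone was not tested. At 800 CPM or more, HH HFD held 5.95% and the other libraries at most 0.348%. Dapl1 levels formed a continuum, with no gap at the limit. In HH HFD, 98 beta cells lay at 350 to under 400 CPM and 88 at 400 to under 450 CPM. In the other libraries 9, 21 and 16 cells lay in the range just below the limit and 10, 8 and 17 in that just above it. At the limit a member rested on few molecules, since cells between 400 and 450 CPM had a median of 12.5, 12, 13 and 12 Dapl1 UMIs.

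**Figure D1:**
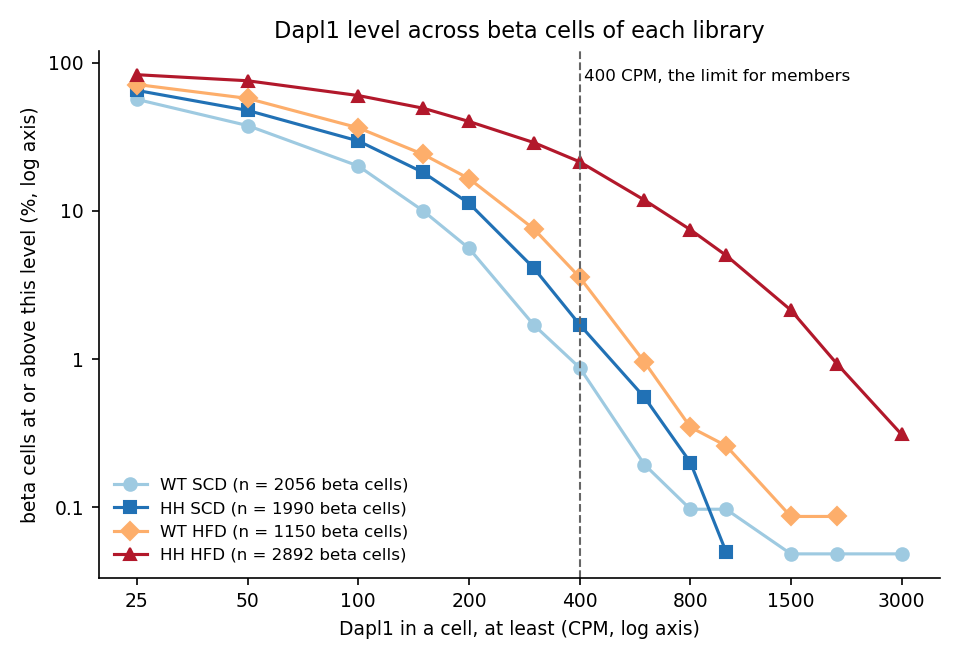
Percent of beta cells (log axis) with Dapl1 at or above the level on the log x axis, for each of the 4 libraries, with no Mafa condition. Dapl1 falls off without a gap at 400 CPM, and the HH HFD curve lies above the others at each level up to 2000 CPM.

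Dapl1 was found across beta cells and not only in members. In HH HFD only 17.0% of beta cells had no Dapl1 UMI, against 43.0%, 34.6% and 27.7% in the others. After thinning to 3000 UMIs, a Dapl1 UMI was found in 14.6%, 17.2%, 24.3% and 41.6% of beta cells. Free RNA can bring a UMI to cells that do not express a gene. Endothelial cells, which should lack Dapl1, had a UMI in 0.893%, 1.15%, 0.676% and 2.58% of thinned cells, and delta cells in 0.741%, 0%, 0% and 5.84%. The median depth before thinning was 26402.5, 26190, 29868.5 and 24254.5 UMIs in beta cells and 6071.5, 5768, 7078.5 and 6116 in endothelial cells. The 0 of 139 and 0 of 88 delta cells allow shares of up to 2.62% and 4.11% by the exact interval. Alpha cells stood between, with 6.94%, 10.6%, 10.3% and 13.3%, and 5, 12, 4 and 6 alpha cells reached 400 CPM. No delta or endothelial cell did.

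The level that chose the members is a description and carries no test. Dapl1 in the summed counts of members was 748, 553, 599.7 and 831 CPM. In the beta cells under 400 CPM it was 57.6, 78.1, 92.3 and 134 CPM, rising in the same order as the share of members. The WT SCD value leaned on 1 cell, which held 37.0% of the Dapl1 UMIs of its 16 members. The median member had 448, 489, 474 and 628 CPM, and the highest single cells reached 3310, 1146, 2049 and 6721 CPM.

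A Mafa UMI set the members apart from few cells. Mafa was found in 95.3%, 95.6%, 95.6% and 88.5% of the beta cells under 400 CPM Dapl1. The Mafa level is a description, since the rule used it. The summed level was 354 CPM in members against 397 in the rest, then 345 against 358, 342 against 311 and, in HH HFD, 162 against 216. The log2 ratios of members over the rest were -0.16, -0.05, 0.14 and -0.42. Against beta cells under 400 CPM Dapl1 that also had a Mafa UMI, the HH HFD members had 162 against 242 CPM. The name Mafa-positive means that Mafa was detected.

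The other given markers did not all hold in each library. Rgs2 was lower in members in 3 libraries, at 22.7 against 76.0, 35.2 against 44.4 and 92.6 against 141 CPM, and higher in HH HFD at 301 against 235. Spp1 was 1.89 against 7.001, 6.20 against 2.64, 1.53 against 4.56 and 32.8 against 16.0 CPM. Outside HH HFD the members held 1, 6 and 2 Spp1 UMIs, with counting intervals of the ratio that included 0 on the log2 scale, and 1 cell held 39.7% of the 383 Spp1 UMIs of the other WT SCD beta cells. In HH HFD 19.2% of members held the 499 UMIs, 14.8% of them in 1 cell. Pappa2 was higher in members in each library, at 102 against 40.8, 130 against 51.2, 68.8 against 35.0 and 95.7 against 80.6 CPM. Its fitted log2 fold of 0.78 was 0.22 against cells matched on UMIs 1 to 1 and 0.38 matched several to 1. Since Rgs2 went against the label in WT SCD and WT HFD and Spp1 was too sparse to read outside HH HFD, the class is described here by its rule.

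**Figure D2:**
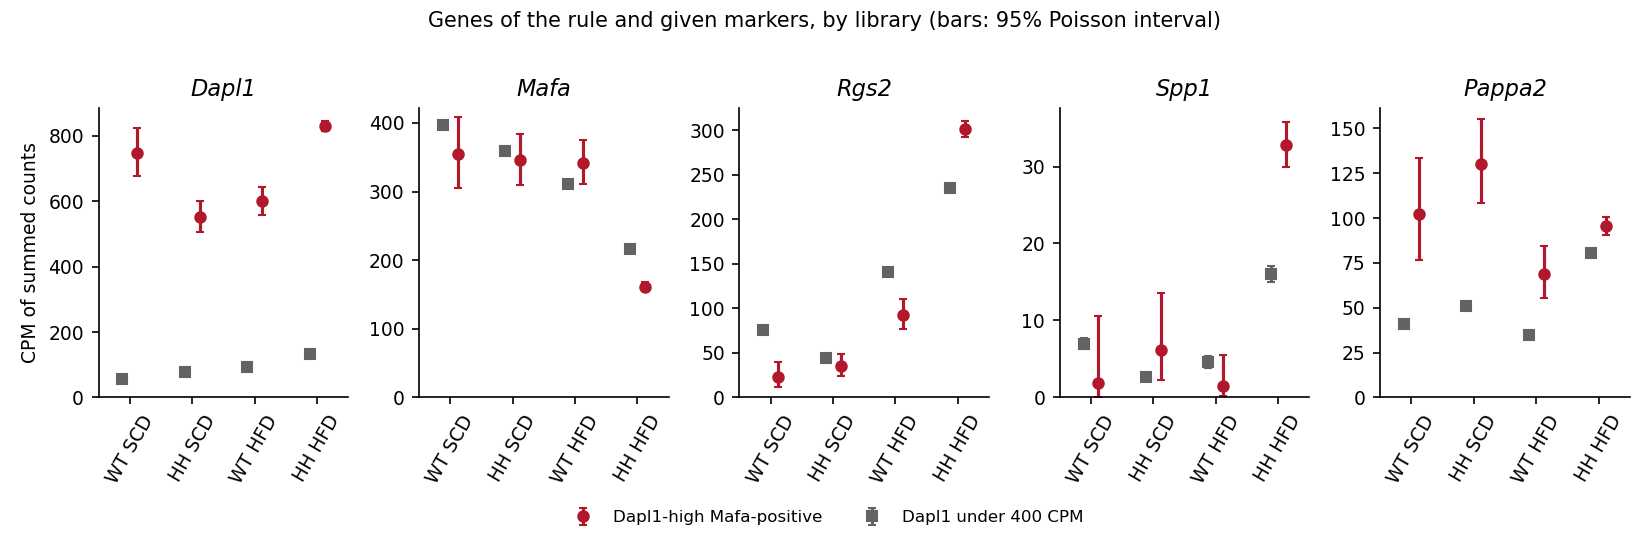
CPM of summed counts with 95% Poisson intervals for Dapl1, Mafa, Rgs2, Spp1 and Pappa2 in members (red circles) and in beta cells under 400 CPM Dapl1 (grey squares) of the 4 libraries. Rgs2 is lower in members in WT SCD and WT HFD and higher in HH HFD, while Pappa2 is higher in members in all 4.

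Pappa2 acts on insulin-like growth factor binding proteins, and the other genes of that pathway were mostly near 0 in members. Pappa was counted at 0, 0, 0 and 0.0657 CPM, the inhibitor Stc2 at 0 in all 4 libraries, and the binding protein Igfbp3, a substrate, at 0 in 3 libraries and 5.19 CPM in HH HFD. Of the 4 other genes of the list that passed the expression filter, Igf1r, the receptor of insulin-like growth factor, was lower (log2 -0.31 ± 0.09 SE), a call lost without WT HFD (log2 -0.34) or without HH HFD (log2 -0.20). Igf2r, Insr and Igfbp7 did not pass the test. Among 7 other Rgs genes tested, Rgs11 was lower (log2 -0.45 ± 0.14 SE) and 6 did not pass, and that call was lost without HH SCD (log2 -0.37), WT HFD (log2 -0.43) or HH HFD (log2 -0.62). Neither Igf1r nor Rgs11 was called against cells matched on UMIs, 1 to 1 or several to 1.

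Beyond the rule, members differed from the other beta cells of their library in many genes. The summed counts of both classes in the 4 libraries were compared with edgeR's quasi-likelihood test, blocked by library, so that p measures whether a difference repeats over libraries of different genotype, diet and age. Of 8218 genes tested, 452 were higher in members (5.50%) and 213 lower (2.59%) at an adjusted p under 0.05. Of these 665 genes (8.09%), 565 had a log2 ratio of one sign in all 4 libraries (28.0% of all genes tested did), which the blocked test itself favours. The median log2 fold over all genes tested was -0.00. The counts fell to 185 higher and 84 lower without HH HFD and to 289 higher without WT SCD, and against cells matched on UMIs 1 to 1 they were 91 and 50. Of 658 called genes tested again in that matched comparison, which shares the members' counts, 135 were called. Across 1352 genes at 50 CPM or more, the log2 ratios of 2 libraries correlated with Pearson r of 0.47 to 0.62, which is a correlation over genes and not over replicates.

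Among genes at a mean of 20 CPM or more with one sign in all 4 libraries, Gpx2, a glutathione peroxidase, had the highest fold of those called. It was 54.9 against 15.2, 42.4 against 20.04, 52.0 against 26.2 and 53.0 against 34.6 CPM. Members were higher in 4 of 4 libraries with a fitted log2 fold of 0.89 ± 0.11 SE (edgeR quasi-likelihood, adjusted p = 1.48e-06). Members held nearly the same level in each library, while the level in the other beta cells differed. Prdx4, the peroxiredoxin of the endoplasmic reticulum (ER), was 30.3 against 14.8, 31.0 against 16.7, 45.9 against 16.0 and 43.9 against 31.5 CPM (log2 0.80 ± 0.12). Fkbp11, an ER prolyl isomerase, was 299 against 129, 303 against 165, 253 against 183 and 478 against 319 CPM (log2 0.77 ± 0.08). Tent5a, a poly(A) polymerase known to act on transcripts of secreted proteins, was 373 against 201, 395 against 197, 177 against 112 and 168 against 115 CPM (log2 0.80 ± 0.07).

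The peptide genes Vgf (log2 0.76 ± 0.11) and Pdyn, which encodes prodynorphin (log2 0.75 ± 0.10), were higher in all 4 libraries as well. Pdyn differed most in WT HFD, at 169 against 67.0 CPM, and least in HH HFD, at 100.2 against 80.6. Nnat, neuronatin, which aids the processing of preproinsulin, was 18.9 against 15.9, 35.2 against 14.2, 42.8 against 18.1 and 9.79 against 6.93 CPM (log2 0.87 ± 0.15). Its level in HH HFD members was the lowest of the 4. Cks1b, a cofactor of cyclin-dependent kinases, Rnaseh2c, a subunit of RNase H2, and Tcim followed, with log2 folds of 0.82 ± 0.10, 0.84 ± 0.11 and 0.73 ± 0.15. The call of Vgf was not kept against cells matched on UMIs 1 to 1 (log2 0.42, adjusted p = 0.113), and those of the other 10 tested genes were, Gc (below) included, with Fkbp11 at log2 0.50. With the rule and the values taken from separate UMIs, the calls of Nnat (log2 0.40, adjusted p = 0.243) and Tcim (log2 0.43, adjusted p = 0.208) were lost. For members at 800 CPM or more, those of Cks1b (log2 0.29, adjusted p = 0.952), Rnaseh2c (log2 0.61, adjusted p = 0.619), Nnat (log2 0.62, adjusted p = 0.738) and Prdx4 (log2 0.88, adjusted p = 0.0919) were lost.

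**Figure D3:**
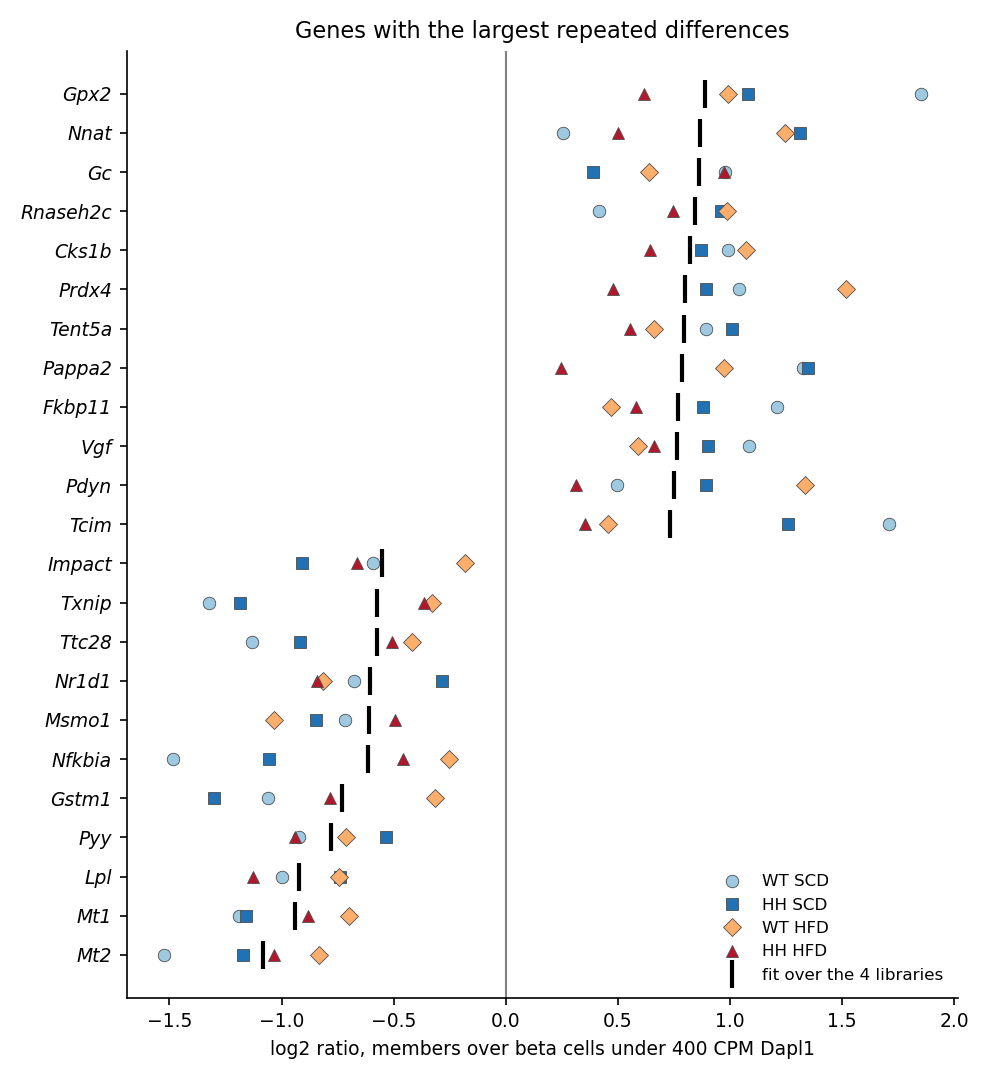
Log2 ratio of CPM, members over beta cells under 400 CPM Dapl1, in each library (symbols) and fitted over the 4 libraries (black bars), for the 12 genes with the highest and the 11 with the lowest fold among those called, of one sign in all libraries and at 20 CPM or more. Pappa2 is shown without a test, and all symbols of a gene lie on 1 side of 0 by the rule that named it.

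The metallothionein genes Mt2 and Mt1, whose products bind zinc and copper, had the lowest folds by the same rule. Mt1 was 429.9 against 980.1, 232 against 517, 149 against 242 and 66.6 against 123 CPM (log2 -0.94 ± 0.07, edgeR quasi-likelihood, adjusted p = 4.33e-10). Mt2 was 72.0 against 207, 40.3 against 90.9, 27.5 against 49.0 and 9.72 against 19.9 CPM (log2 -1.08 ± 0.10). Lpl, lipoprotein lipase, was 41.7 against 83.3, 53.8 against 89.8, 36.7 against 61.4 and 17.4 against 38.0 CPM (log2 -0.92 ± 0.09). Pyy, a peptide hormone found at low level in beta cells, was 35.99 against 68.2, 69.3 against 100.3, 58.9 against 96.4 and 92.4 against 177 CPM (log2 -0.78 ± 0.08). Its call was lost against cells that also had a Mafa UMI (log2 -0.16, adjusted p = 0.362). Against cells matched on UMIs 1 to 1, the log2 folds of Mt2, Mt1, Lpl and Pyy were -0.56, -0.61, -0.57 and -0.47, and all were still called.

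Txnip, an inhibitor of thioredoxin that glucose induces, was 70.1 against 175, 91.0 against 207, 187 against 235 and 183 against 235 CPM (log2 -0.57 ± 0.10). The gap was wide on SCD and narrow on HFD. Nfkbia, the inhibitor of NF-κB, had the same shape, at 58.7 against 164, 57.9 against 120, 62.0 against 74.0 and 37.3 against 51.3 CPM (log2 -0.61 ± 0.11). Also lower by the same rule were Gstm1, a glutathione transferase, Msmo1, a cholesterol synthesis enzyme, and Nr1d1, a repressor of the circadian clock. Ttc28 and Impact, a regulator of translation, were lower too. The log2 folds of all these lay between -0.55 and -0.73. Without HH HFD the calls of Nr1d1 (log2 -0.46, adjusted p = 0.191) and Impact (log2 -0.48, adjusted p = 0.103) were lost, and those of the other 9 genes described were kept. Against cells matched on UMIs 1 to 1, Nr1d1 (adjusted p = 0.861), Impact, Gstm1 and Msmo1 did not pass, with log2 folds of -0.20, -0.45, -0.54 and -0.42. For members at 800 CPM or more, Nr1d1, Impact and Msmo1 did not pass (log2 -0.42, -0.79 and -0.75).

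Some genes of protein entry into the ER and of folding there were higher in members. Of 18 ER chaperone genes, 12 were higher and 0 lower, with a median log2 fold of 0.35. For members at 800 CPM Dapl1 or more, of which the libraries other than HH HFD held 2, 3 and 4, that median was 0.059. Creld2 was 116 against 78.4, 162 against 87.9, 113 against 84.6 and 257 against 166 CPM (log2 0.67 ± 0.08). Sdf2l1 (log2 0.61 ± 0.07) and Pdia6, a disulfide isomerase (log2 0.54), were higher in each library, and Hspa5, the main ER chaperone BiP, differed least among these at 1989 against 1759, 2320 against 1842, 1280 against 983 and 1158 against 1036 CPM (log2 0.29 ± 0.06). Hspa5 did not pass against cells matched on UMIs 1 to 1 (log2 0.17, adjusted p = 0.342), where 7 chaperones passed and the median was 0.20. Of 35 genes for the translocon, signal peptidase and oligosaccharyltransferase, which move nascent proteins into the ER, 18 were higher and 0 lower (median log2 0.27), led by Ssr4 (0.65 ± 0.07) and Sec11c (0.59 ± 0.07). In the matched comparison 6 of them passed. Of 14 genes of the ATF4 and CHOP branch of the stress response, 1 was higher (Phgdh) and 4 were lower (Atf3, Atf5, Nupr1 and Vldlr). Of these 5 only Nupr1 kept its call in each fit that left out a library, and without HH HFD 0 were higher and 1 lower.

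Ribosomal protein genes were also higher, by small folds. Of 78 tested, 45 were higher and 0 lower, with a median log2 fold of 0.22, and 24 and 12 were higher without WT SCD and without HH HFD. Against cells matched on UMIs 1 to 1, 9 were higher, and matched several to 1, 23. Reads of these genes can be shared with processed pseudogenes. Of 13 mitochondrially encoded genes, 6 were lower and 0 higher (median log2 -0.20), 3, 0, 4 and 2 without WT SCD, HH SCD, WT HFD and HH HFD. None of them passed against cells matched on UMIs 1 to 1. Of 14 antioxidant genes, 6 were higher, all of them peroxiredoxins, Gpx1 or Txn1 (median log2 0.23), 2 to 4 when 1 library was left out, and 1 in the comparison matched 1 to 1. Gpx2, described above, was not on that list. The ribosomal, translocon and mitochondrial lists were chosen after values were seen.

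Insulin production genes were near the level of the other beta cells. Ins1 and Ins2 together made up a median of 55.1%, 56.4%, 54.1% and 53.4% of a member's UMIs against 54.5%, 56.0%, 55.6% and 56.1% in the rest, and neither Ins1 nor Ins2 passed the test (log2 0.07 and -0.03). Of 19 beta cell function genes, 3 were higher and 0 lower, with a median log2 fold of 0.01. Iapp, which encodes amylin, was 45450 against 37187, 51804 against 38607, 48267 against 41176 and 71840 against 55284 CPM (log2 0.36 ± 0.05). Pcsk1, a proinsulin convertase (log2 0.48 ± 0.07), and the granin Scg2 (log2 0.41 ± 0.06) were the others, and in the comparison matched 1 to 1 the count was 1. The transcription factor genes Pdx1, Neurod1, Nkx2-2, Isl1 and Pax6 did not pass the test, with log2 folds between -0.11 and 0.04.

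Of 7 genes of beta cell maturity or function that the study discusses besides Mafa, 3 were lower and 0 higher (median log2 -0.33), a list that is not independent of these samples. The study treats Ucn3, Trpm5, Slc2a2 and Nkx6-1 as maturity or function markers, and it takes up Glp1r, Cacna1d and Itpr1 as genes near PAX4 binding sites. Ucn3, the urocortin that marks mature beta cells, was 182 against 266, 170 against 272, 252 against 284 and 184 against 220 CPM (log2 -0.34 ± 0.07, adjusted p = 0.00355 by edgeR's quasi-likelihood test). Trpm5, a cation channel that supports insulin secretion, was 56.8 against 92.6, 93.1 against 91.7, 82.6 against 116 and 26.0 against 52.7 CPM (log2 -0.61 ± 0.11). It was lower in 3 of 4 libraries and nearly equal in HH SCD. Glp1r, the receptor of the incretin GLP-1, was lower in 4 of 4 (log2 -0.33 ± 0.07). Without HH HFD the calls of Trpm5 (log2 -0.33, adjusted p = 0.139) and Glp1r (log2 -0.29, adjusted p = 0.0861) were lost. Slc2a2, the glucose transporter GLUT2, Nkx6-1, Cacna1d and Itpr1 had log2 folds of -0.18, -0.19, -0.15 and -0.48 and did not pass.

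Of the 4 genes that the study linked to dedifferentiation, a list that too was chosen on these mice, Serpina7, Gc and Ttr were higher in members. They kept their calls against cells matched on UMIs 1 to 1, and Gc and Ttr also without HH HFD. In that last fit Serpina7 passed the expression filter only through the members, which held 5, 6 and 29 UMIs, so it carries no test for Serpina7. Serpina7, thyroxine-binding globulin, was 9.47 against 3.31, 6.20 against 2.98, 22.2 against 3.72 and 44.0 against 17.6 CPM (log2 1.54 ± 0.15). Gc, the vitamin D binding protein, was 54.9 against 27.9, 40.3 against 30.8, 88.0 against 56.5 and 231 against 117 CPM (log2 0.86 ± 0.09, edgeR quasi-likelihood, adjusted p = 1.37e-07). Ttr, transthyretin, a carrier of thyroid hormone, was 1896 against 1279, 1847 against 1327, 1727 against 1322 and 4024 against 2309 CPM (log2 0.59 ± 0.07). Aldh1a3, a retinaldehyde dehydrogenase that is rare in healthy beta cells, was 3.79 against 1.43, 3.102 against 1.94, 2.29 against 1.81 and 19.8 against 8.03 CPM. It passed the expression filter only through the members of HH HFD, so it carries no test, and the first 3 values rest on 2, 3 and 3 UMIs. Gc and Ttr are also strong in alpha cells. The defining alpha marker Irx1 was at 0 in the members of WT SCD, HH SCD and WT HFD. The 6 alpha markers summed to 616 to 838 CPM in members and to 657 to 837 CPM in the other beta cells.

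**Figure D4:**
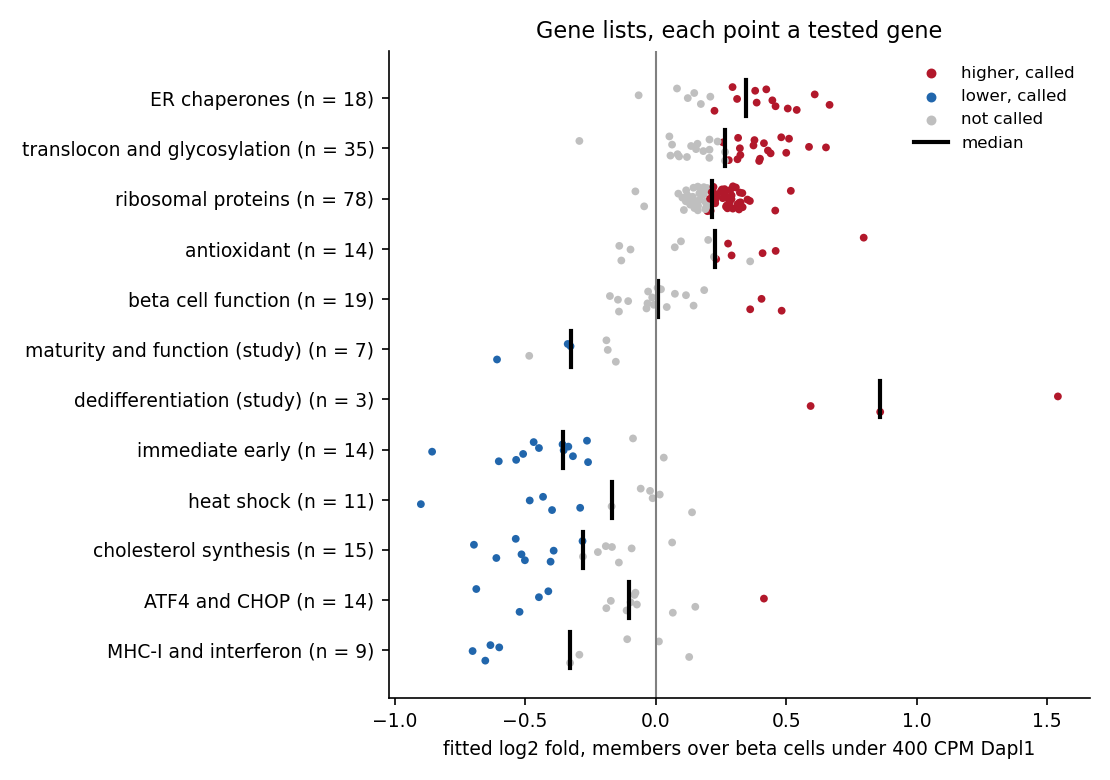
Fitted log2 fold, members over beta cells under 400 CPM Dapl1, of each tested gene in 12 lists, coloured red or blue where the edgeR test called it and grey where it did not, with the list median as a black bar. Aldh1a3 is not drawn. Medians of the ER and ribosomal lists lie to the right of 0, and those of the immediate early and cholesterol lists to the left.

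Genes induced within minutes of stimulation, or by tissue handling, were lower in members. Of 14 immediate early genes, 12 were lower and 0 higher (median log2 -0.35). Junb was 256 against 333, 174 against 286, 149 against 169 and 65.8 against 111 CPM (log2 -0.51 ± 0.08), and Npas4, which depolarisation induces, was 20.8 against 40.9, 26.9 against 48.7, 15.3 against 13.7 and 2.17 against 5.74 CPM (log2 -0.86 ± 0.17). WT HFD stood apart, since its list median was 0.08 while those of the other libraries lay between -0.38 and -0.65. Without HH HFD, only 2 of the 14 were lower, and against cells matched on UMIs 1 to 1, 7 were. Of 11 heat shock genes, 5 were lower (3 in the matched comparison) and 0 higher, among them Dnajb1 (log2 -0.43) and Hspb1 (log2 -0.90 ± 0.16). Hspa1a and Hspa1b also passed, but they are near-identical copies whose reads counting can split.

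Of 15 genes of cholesterol synthesis and uptake, 8 were lower and 0 higher (median log2 -0.28). They included Hmgcs1, at 30.3 against 76.3, 35.2 against 73.4, 29.8 against 30.01 and 14.7 against 19.0 CPM (log2 -0.50), Insig1 and Srebf2, the master regulator of the pathway (log2 -0.40). The count was 4 without HH SCD, and 2 in the comparison matched on UMIs 1 to 1. Of 9 genes of antigen presentation and interferon response, 4 were lower (among them Irf1, Psmb8 and Bst2), 1 without HH HFD and 0 in the matched comparison. Of 10 cAMP and CREB genes 0 passed in either direction, and of 9 genes of prolactin and STAT5 signalling 1 did (Cish, lower), a call lost without HH HFD (log2 -0.33) and in the matched comparison (log2 -0.36).

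Of 20 cell cycle genes, 14 were under the expression filter, and Cenpf and Mki67 passed it only through the members, so their levels are a description and no count or median over the list is given. Stmn1, a regulator of microtubules, was 0 against 5.45, 26.9 against 6.49, 11.5 against 3.69 and 32.9 against 10.2 CPM (log2 1.69 ± 0.16). Cenpf was 0 against 2.19, 9.31 against 1.46, 15.3 against 0.997 and 22.5 against 3.78 CPM. Mki67, the common marker of cycling cells, was 0 against 2.28, 14.5 against 2.18, 9.18 against 1.33 and 14.1 against 3.99 CPM. Counts of 0 among the 16 WT SCD members allow up to 5.68 CPM. Mki67 UMIs were found in 0 of 16, 2 of 32, 5 of 39 and 49 of 510 members, or 9.61% in the last, against 2.51% of the other HH HFD beta cells. After thinning to 3000 UMIs those HH HFD shares were 2.35% (exact interval 1.22 to 4.07) and 0.792% (0.470 to 1.25). In HH SCD 1 cell held 71.4% of the members' Mki67 UMIs. Without HH HFD, Mki67 and Cenpf were under the expression filter and Stmn1 was still called (log2 1.53). Scores for doublets marked 0, 0, 0 and 9 members.

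Levels of markers of other cell types differed by type. Summed CPM in members against the other beta cells ranged over the 4 libraries from 3.82 to 26.4 against 17.5 to 47.6 for 7 endothelial markers, from 41.7 to 59.98 against 51.7 to 73.9 for 7 macrophage markers and from 5.17 to 18.0 against 8.59 to 25.9 for 8 lymphoid markers. All 7 stromal markers were at 0 in the members of WT SCD, HH SCD and WT HFD, and they summed to 29.0 CPM in HH HFD members against 41.4. The 4 delta markers summed to 43.6 to 81.1 CPM in members and 56.5 to 94.3 in the rest, and the 2 pancreatic polypeptide cell markers to 138 to 333 and 205 to 477. The 7 acinar markers summed to at most 1.25 CPM in members and 1.84 in the rest. The 7 ductal markers, of which Clu and Epcam are also found in islets, were higher in members in each library, at 252 against 201, 231 against 193, 236 against 206 and 249 against 237 CPM summed. None of the 3 that were tested, Krt7, Clu and Epcam, passed (median log2 0.20). The defining markers Krt19, Sox9 and Cftr were at 0 in members outside HH HFD. In HH HFD all 7 were detected in members, while Cftr was at 0 in the other beta cells. The part of other cell types in the results was not tested.

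Within HH HFD, levels of several genes followed the Dapl1 level step by step, and some did so in other libraries too (below). From cells with 0 Dapl1 UMIs (n = 492) to cells at 800 CPM or more (n = 216), Mafa went from 235 through 226, 214, 196 and 143 to 116 CPM. The steps are 0, above 0 to under 100, 100 to under 200, 200 to under 400, 400 to under 800 and 800 CPM or more, with Mafa-zero cells included. Trpm5 went from 58.7 through 57.1, 51.6, 45.0 and 28.2 to 14.5 CPM. Ucn3 went from 244 to 168 CPM, lower at every step. Gc went from 91.0 to 286 CPM and Ttr from 1594 to 4579, each higher at every step. Serpina7 was between 12.1 and 19.4 CPM in the 4 lower steps, 37.9 at 400 to under 800 and 74.9 at 800 CPM or more. Other genes did not follow the steps in order. Slc2a2 was 170, 164, 165, 156, 133 and 114 CPM. Aldh1a3 was 6.27, 6.82, 11.1, 7.41, 17.1 and 22.0 CPM, Spp1 was highest in the last class (65.4) and next in the first (33.7), and Pappa2 was level from 200 CPM Dapl1 up (97.7, 97.6 and 97.9). Median depth rose along the same steps, from 18298 to 30744 UMIs, and its part in these levels was not tested.

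**Figure D5:**
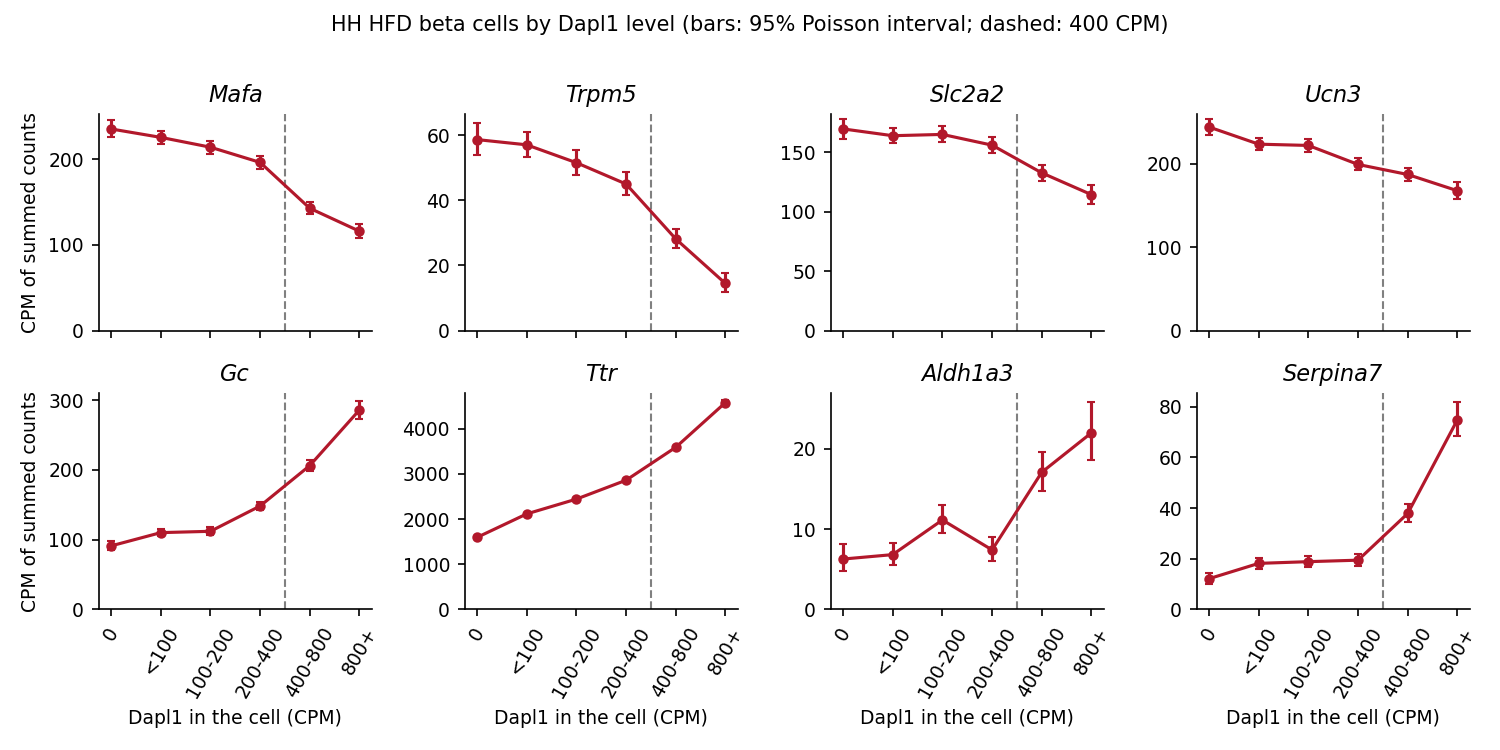
CPM of summed counts with 95% Poisson intervals in 6 classes of HH HFD beta cells by their Dapl1 level, for 4 maturity or function and 4 dedifferentiation genes. Mafa, Trpm5, Slc2a2 and Ucn3 are lowest and Gc, Ttr, Aldh1a3 and Serpina7 highest in cells at 800 CPM Dapl1 or more.

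The share of cells without a Mafa UMI did not follow the Mafa level step by step. It was 15.9%, 11.3%, 10.3% and 9.26% in the 4 classes under 400 CPM Dapl1, 16.3% at 400 to under 800 and 20.4% at 800 CPM or more in HH HFD. In WT SCD, Mafa was 379, 411, 408, 381, 327 and 374 CPM over the 6 classes, the last of 2 cells. In HH SCD it was 347, 371, 368, 330.05, 334 and 290.1 CPM, and in WT HFD 290.002, 310, 329, 324, 334 and 269 CPM, each with 4 cells in the last class. Ttr was higher at every step in WT SCD (1169 to 3857 CPM) and HH SCD (1235 to 2621), and in WT HFD from above 0 Dapl1 up (1226 to 2618). Gc was higher at every step in WT HFD (52.4 to 220 CPM), but not in WT SCD or HH SCD. Ucn3 was lower at every step in HH SCD (297 to 93.3 CPM), but not in WT SCD or WT HFD. Trpm5 was lower at every step in none of these libraries.

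The Dapl1-high cells without a Mafa UMI numbered 110 in HH HFD and 2 in each other library. In WT SCD 1 of the 2 and in HH SCD both of the 2 had doublet scores among the highest. The comparison of members with them therefore rests on single cells outside HH HFD. Of 8144 genes tested, 6 were higher in members (0.0737%) and 1 was lower (0.0123%), 0.0860% in all, by edgeR's quasi-likelihood test, and DESeq2 called 0 higher. Slc2a2 (log2 1.67, adjusted p = 0.0306), Cox6a2, a muscle-type subunit of cytochrome c oxidase (log2 1.69, adjusted p = 0.0306), and Prss53, a serine protease (log2 1.54, adjusted p = 0.0387), were higher in members in all 4 libraries. The other called genes, Nr4a1, Cenpf and Npy (higher) and Rbp4 (lower), were outside the rule for naming and are given because they were called. UMIs of Cenpf were found in 0, 2, 7 and 38 members and those of Npy in 2, 3, 1 and 6, so these calls rest on few cells. In HH HFD, where both classes are large, members had 136 against 82.3 CPM of Slc2a2, 102 against 43.8 of Cox6a2 and 251 against 171 of Prss53. There Trpm5 was 26.0 against 10.5 and Ucn3 184 against 160 CPM in members and Mafa-zero cells, while Serpina7 was 44.0 against 85.1, Rgs2 301 against 425 and Dapl1 831 against 1001. The 6 higher genes became 29 without HH HFD and 3 without WT SCD, and the 1 lower gene became 4 without HH HFD.

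Members of HH and WT libraries could be compared only as single libraries, with no test. On HFD, members of HH had a Mafa level of 162 CPM against 342 in members of WT, a description since the rule used Mafa in both (log2 -1.08). The gap in the other beta cells was -0.52. Trpm5 (-1.67 against -1.14) and Slc2a2 (-1.09 against -0.90) had the same direction in members and in the rest. Gc (1.39 against 1.05), Ttr (1.22 against 0.80) and Rgs2 (1.70 against 0.74) were higher in HH, in members by more. Serpina7 was higher in HH by 0.99 in members and by 2.25 in the rest, with 22.2 CPM in WT HFD members against 3.72 in the rest of that library. The 22.2 CPM rest on 29 UMIs in 7 of 39 members, 37.9% of them in 1 cell. Nnat was lower in HH by -2.13 and -1.39 on the log2 scale. On SCD, where members were 16 and 32 cells, the intervals of Gc (-1.18 to 0.30), Ttr (-0.15 to 0.08), Slc2a2 (-0.56 to 0.08) and Rgs2 (-0.36 to 1.71) included 0, so a difference was not detectable at this depth. Trpm5 was higher in HH members on SCD (0.71, interval 0.10 to 1.36), opposite to its direction on HFD, and this difference between the diets was not tested. Mt1 was lower in HH members on both diets (-0.89 and -1.16), as in the other beta cells (-0.92 and -0.98).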

How the data were processed

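According to the labels and the methods of the study, the authors ran Cell Ranger 6.0 against mm10, and the deposited values are whole, unnormalised UMI counts of its filtered barcodes. Cells were kept with mitochondrial UMIs under 10%, 3000 to 50000 UMIs and 2000 to 5000 genes. Counts of the cells in a class were added up within each library, and CPM are relative to that sum. edgeR 4.0.16 (quasi-likelihood, TMM, library as a block) tested genes with a mean of at least 5 CPM over the 8 sums, with Benjamini-Hochberg adjustment. The study compared single cells, which are not replicates, so sums were tested instead. Dapl1, Mafa and the given markers Rgs2, Spp1 and Pappa2 carry no test. Neither do Aldh1a3, Mki67 and Cenpf against the rest, nor Serpina7 in the fit without HH HFD, which passed the filter only through members. In simulated data for members against the rest (8603 genes), 90.4% of genes at a log2 fold of 1 were recovered, with 1.10% false among calls. Against Mafa-zero cells (8009 genes) 14.6% were recovered. The simulated counts had the same set spread for all genes and the same fold in all 4 libraries. These rates need not hold for the real counts. Scrublet's automatic limit marked only 7 to 46 cells a library, so the 33 to 154 highest scores, at the expected rate of 0.8% per 1000 cells, were marked and removed in an alternative. Genes were named by rule: the 12 highest and 12 lowest folds among called genes of at least 20 CPM with one sign in all 4 libraries, up to 5 each way by the same rule against Mafa-zero cells (3 qualified), and members of the lists. Some genes that the rule or the lists name are not reported here. Members and lists were chosen with earlier results of these data known. Alternatives were other Dapl1 limits, thinning, matching on UMIs 1 to 1 or several to 1 (the latter added after the data were seen), a split of each cell's UMIs into a part for the rule and a part for the values, other filters, size factors, DESeq2 1.42.0, no block and leaving out each library. Python 3.11.15 with numpy 2.4.6, scipy 1.17.1, scanpy 1.11.5 and R 4.3.3 were used with seed 1. Nothing is known of which mouse a cell came from, so p-values measure the spread between libraries.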

Additional observations from a re-analysis of the deposited data

Results flagged for a closer look

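Of 36 genes checked for opposite directions between libraries, 4 gave values whose counting intervals lay on different sides of 0. None of these differences was tested, since each group is 1 library. The log2 ratio of Rgs2 in members over beta cells under 400 CPM Dapl1 was 0.36 in HH HFD, -1.74 in WT SCD and -0.61 in WT HFD. That of Prss53 was 0.23 in WT SCD and -0.080 in HH HFD. Pdyn in HH over WT members was 0.74 on SCD and -0.75 on HFD, and Trpm5 in HH over WT members was 0.71 on SCD and -1.67 on HFD.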

How the results depend on the processing

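The share of members in WT SCD, HH SCD, WT HFD and HH HFD was 5.204%, 10.6%, 16.0% and 34.6% with Dapl1 at 200 CPM or more and 0.0973%, 0.151%, 0.348% and 5.95% at 800 CPM or more. Thinned to 3000 UMIs it was 2.46% in HH SCD and 5.95% in HH HFD, and with the rule on a random part of each cell's UMIs 2.46% and 14.9%. HH stayed above WT within each diet in all settings run, although at 800 CPM the SCD interval included 0.

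Genes higher and lower in members (452 and 213) numbered 91 and 50 against cells matched on UMIs 1 to 1, 200 and 88 matched several to 1, 250 and 118 with the rule and the values from separate UMIs, and 44 and 77 for members at 800 CPM or more. They numbered 185 higher at a mean of 50 CPM or more, 71 lower by DESeq2 and 389 lower with no filter. Leaving out 1 library gave 185 to 374 higher and 84 to 176 lower, the lowest without HH HFD. Without the library as a block, edgeR called 0 and 0, with 1058 genes at an unadjusted p under 0.05, and DESeq2 with the block called 430 in all. The labels carry no replicate numbers that pair samples across groups. The 6 higher and 1 lower against Mafa-zero cells became 1 higher with UMIs matched, 3 and 4 with separate UMIs, 0 higher by DESeq2, 23 and 4 with no filter, 7 lower with median-of-ratios factors, and 3 to 29 and 1 to 4 when 1 library was left out.

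Median log2 folds of lists for members at 800 CPM or more were -0.74 for maturity, -0.15 for beta cell function, 1.48 for dedifferentiation, 0.059 for ER chaperones, -0.88 for immediate early, -0.67 for cholesterol, -0.61 for heat shock, -0.79 for interferon, 0.30 for ribosomal and 0.16 for translocon genes. The dedifferentiation median of 1.08 included Aldh1a3, which was under the filter in the fits matched 1 to 1 and with separate UMIs. There the median over the other genes was 0.65 and 0.80, the values of Gc, whose main fold was 0.86. That of ER chaperones was 0.20 matched 1 to 1 and 0.24 several to 1. The interferon median was -0.64 without insulin, Iapp and mitochondrial genes. Over the fits that left out 1 library, ranges were -0.56 to -0.26 for cholesterol and -0.56 to -0.10 for interferon genes. For dedifferentiation the range was 1.05 to 1.13 in the fits that included Aldh1a3. Without HH HFD, where Aldh1a3 was under the filter, the median was 0.64, the value of Gc. The causes were not tested. Of 356 refits of the 23 genes named by rule other than Pappa2, 307 kept the call, with 15 of 23 by DESeq2, 16 of 23 at 800 CPM or more and 0 of 23 without the block.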

Other observations

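Npy, a peptide of immature beta cells, was called higher in members with values that came from few cells. The other tested genes of its list, of immature or progenitor cells, had negative folds. Pyy was lower (log2 -0.78), and Sox4, Cd81 and Rbp4 did not pass (log2 -0.22, -0.25 and -0.41). Npy was 43.6 against 18.3 CPM in WT SCD, 17.6 against 15.8 in HH SCD, 1.53 against 22.3 in WT HFD and 11.9 against 1.99 in HH HFD (log2 1.06 ± 0.34, edgeR quasi-likelihood, adjusted p = 0.0462). UMIs of Npy were found in 2 of 16, 3 of 32, 1 of 39 and 6 of 510 members, and 1 cell held 95.7% of them in WT SCD. The call of Npy was lost without WT SCD (adjusted p = 0.103) and without HH HFD (log2 -0.28, adjusted p = 0.781).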
